A study of Mus musculus with 6 samples.

Results

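Imprinted genes are expressed mainly from the copy inherited from one parent, and many of them regulate growth. Some are maternally expressed long non-coding RNAs (lncRNAs), such as H19, which lies beside Igf2, and Meg3, Rian and Mirg, which follow one another in the Dlk1-Dio3 domain. Others are paternally expressed proteins, such as Dlk1, Peg3, Mest, Plagl1 and Ndn. H19 is known as an abundant RNA of embryonic muscle and of differentiating myoblasts.

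The 10 imprinted genes H19, Meg3, Rian, Mirg, Dlk1, Peg3, Mest, Plagl1, Grb10 and Ndn were taken by symbol from a table of raw RNA sequencing counts with 43074 symbols, and all 10 were present. The cells were C2C12, an established mouse myoblast line that fuses into myotubes in low-mitogen medium, and the labels give their genotype as wild type. The 3 groups had 2 libraries each. Day 0 cells were untreated. The day 4 groups were kept for 4 days in differentiation medium with horse serum, with DMSO or with 1 mM 4-PBA (4-phenylbutyric acid, known as a chemical chaperone and an inhibitor of histone deacetylases). The comparisons asked how these genes differed between day 0 and day 4 of differentiation and whether the drug altered that difference. Against day 0, the time, the differentiation medium and the added DMSO or 4-PBA changed together and cannot be told apart. The labels do not say whether the replicates were separate cultures, so the p-values measure the spread between these libraries, which may be technical. For each gene that spread was estimated in large part from other genes. The counts do not separate the parental alleles, and in bulk samples fewer cells of a type and less RNA per cell cannot be told apart.

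Library totals ranged from 47908926 to 74697397 counts. The summed level of 7 myotube markers lay between 86.1 and 91.0 CPM (edgeR's count scaled to library size after TMM) at day 0, between 4865 and 5188 CPM with DMSO and between 4798 and 4903 CPM with 4-PBA. The 4 myoblast markers moved apart: with DMSO, Des rose from 881 ± 5.70 to 2212 ± 19.6 CPM, Myod1 from 97.4 ± 2.30 to 114 ± 3.44 CPM and Pax7 from 0.304 ± 0.00672 to 1.06 ± 0.0488 CPM, while Myf5 fell from 50.2 ± 0.302 to 22.9 ± 0.291 CPM. The summed level of 4 proliferation markers was 1370 to 1391 CPM at day 0, 392 to 453 CPM with DMSO and 485 to 494 CPM with 4-PBA. Among markers of other lineages, the 4 adipocyte and 3 endothelial markers were each under 1 CPM in every library. Of the 4 macrophage markers only Cd68 passed 1 CPM, with at most 5.47 CPM. Of the 4 osteoblast markers only Runx2 did, and it was not low, at 80.0 ± 1.34 CPM at day 0, 59.2 ± 4.65 CPM with DMSO and 53.0 ± 1.88 CPM with 4-PBA. The part of these shifts in the results was not tested.

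H19 carries within it the hairpin of a microRNA, miR-675, and is shown here by that sequence because H19 was the most abundant of the 10 genes per exon length in every group. The hairpin of 84 bases occurs whole in 3 of the 7 H19 transcripts annotated in GENCODE M21, for instance at bases 997 to 1080 of the longest, H19-202. In RefSeq (GRCm38.p6) it lies on the minus strand at chr7:142577064-142577147. In the first line the capitals mark the mature arms; in the next lines they mark the seed, bases 2 to 8, through which a microRNA recognises its targets.
Mir675 hairpin: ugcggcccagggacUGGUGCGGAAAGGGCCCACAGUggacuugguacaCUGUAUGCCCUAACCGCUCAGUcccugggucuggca
mmu-miR-675-5p: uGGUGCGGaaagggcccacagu
mmu-miR-675-3p: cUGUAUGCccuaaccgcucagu
The row of Mir675 itself held 0 counts in all 6 libraries. The labels name a general RNA library kit and no selection of small RNA, so the counts of H19 describe the host RNA, and the mature microRNA was not measured here.

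The 10 genes spanned a very wide range of levels. Measured per length, as RPKM (CPM per kilobase of exon), H19 stood at 112 ± 0.995 (SD, n = 2) at day 0 and Peg3 at 33.5 ± 0.435 RPKM. Mest followed at 0.624 ± 0.0417, Ndn at 0.117 ± 0.00848 and Plagl1 at 0.0945 ± 0.0152 RPKM; the last pair differed by about the spread of their replicates. Rian, Meg3, Dlk1, Grb10 and Mirg were all at or below 0.00820 RPKM, and Mirg had no counts. In each of the 6 libraries 7 of the 10 genes were under 1 CPM. On day 4 with DMSO the upper end of the order was the same (H19, Peg3, Mest, Ndn), followed by Grb10 at 0.0269 ± 0.00874 and Plagl1 at 0.0138 ± 0.00237 RPKM. Below them Rian (0.00754 ± 0.000834), Meg3 (0.00493 ± 0.00170) and Mirg (0.00386 ± 0.00238 RPKM) lay close together, and the last pair did not differ beyond their spread. Dlk1 was lowest, at 0.00140 ± 0.00198 RPKM. Lengths came from an annotation that may not be the authors' own, so the order of close neighbours is approximate.

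**Figure D1:**
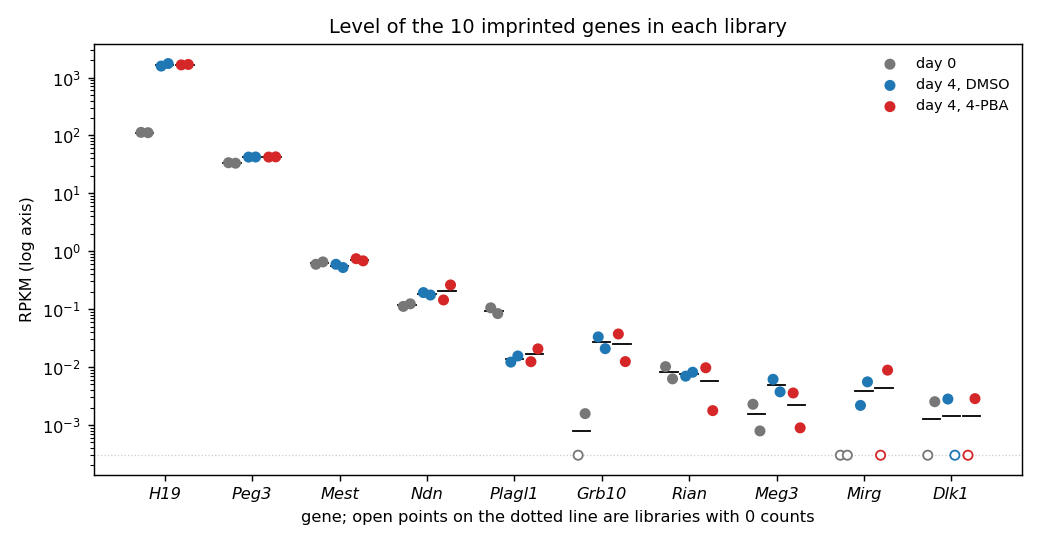
Level of each of the 10 genes in each library as RPKM on a log axis; points are libraries, short lines are group means, and open points on the dotted line are libraries with 0 counts. H19 rose from 112 to 1659 RPKM between day 0 and day 4 with DMSO, Peg3 stayed between 33.5 and 42.5 RPKM in the group means, and the genes of the Dlk1-Dio3 domain lay near the limit of detection in all groups.

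Of the 10 genes, 7 passed the low-count filter of edgeR (filterByExpr) and were tested; Meg3, Mirg and Dlk1 did not. Between day 4 with DMSO and day 0, 4 of the 7 had an adjusted p under 0.05, 3 higher (H19, Peg3 and Grb10) and 1 lower (Plagl1). Grb10 passed the filter only through its day 4 libraries and Plagl1 would not have passed without its day 0 libraries. Each was therefore tested because it was high on 1 side of the comparison, and their calls against day 0 are given no weight. Over all 17433 tested genes 66.3% were called in this comparison, 33.8% higher and 32.6% lower, so a share of 4 in 7 was near the background. The median log2 fold change was 0.34 over the 7 tested members and 0.023 over all tested genes. Between 4-PBA and day 0 the same 4 genes were called in the same directions, against a background of 65.6% (33.2% higher and 32.4% lower). Both comparisons share the day 0 libraries.

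H19 is a lncRNA that in mouse is expressed from the maternal chromosome and shares enhancers with Igf2. At day 0 it stood at 278 and 274 CPM. On day 4 it reached 3877 and 4284 CPM in the DMSO libraries against 4064 and 4136 CPM in the 4-PBA libraries. Every day 4 library lay far above both day 0 libraries, and the 4-PBA values fell between the DMSO values. The mean in DMSO cells was 14.8-fold above day 0, a log2 fold change of 3.89 (SE 0.0401, edgeR adjusted p 2.57e-21). In 4-PBA cells it was 14.9-fold above day 0, again 3.89 on the log2 scale (SE 0.0401, adjusted p 2.72e-21). By count, H19 ranked 588th and 600th among all genes in the day 0 libraries and 4th or 5th in the day 4 libraries. It took 0.0276% to 0.0282% of a day 0 library and 0.383% to 0.425% of a day 4 library.

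Between 4-PBA and DMSO the difference of H19 was 0.0069 on the log2 scale (SE 0.0355, 95% interval -0.069 to 0.082, adjusted p 0.956). This value rested on the balance of the DMSO replicates: without DMSO replicate 1 it was -0.064 (adjusted p 0.0680), and without DMSO replicate 2 it was 0.082 (adjusted p 0.0146).

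The genes whose pattern over the 6 libraries was nearest to that of H19, by Euclidean distance of centred log2 CPM among genes with at least 5 CPM in a group, were Frmpd1 (distance 0.182), Daam2 (0.193) and Ablim3 (0.249). Against day 0 they rose in DMSO cells by 3.96, 3.76 and 4.08 on the log2 scale. A rise near that of H19 followed from how they were picked. Daam2 encodes a formin-family protein. Ablim3, an actin-binding LIM protein gene, was lower in 4-PBA than in DMSO cells by a log2 difference of -0.18 (SE 0.0496, adjusted p 0.0225). The same search was planned for Meg3 but could not be made because Meg3 was not tested.

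Igf2, the fetal growth factor gene next to H19, had 6 and 16 counts at day 0. The DMSO libraries held 136 and 183 and the 4-PBA libraries 174 and 159 counts. Day 4 and day 0 did not overlap, and the log2 fold change was 3.64 with DMSO (SE 0.305, adjusted p 7.32e-13) and 3.85 with 4-PBA (SE 0.302, adjusted p 1.39e-13). Igf2 would not have passed the filter without its day 4 libraries, so these tests against day 0 are given no weight. Its level stayed far below that of H19, at 0.404 ± 0.0385 against 1659 ± 117 RPKM with DMSO. Igf2 exons overlap Gm49394 on the same strand and Igf2os on the other in GENCODE M21, so its counts may be divided between these genes.

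In the order of the RefSeq annotation, the 4 protein-coding genes on one side of H19 were Mrpl23, Tnnt3, Lsp1 and Tnni2, and on the other Igf2, Ins2, Th and Ascl2. These neighbours were picked after the counts of H19 had been seen. The fast skeletal troponin genes rose more than H19 with DMSO, Tnnt3 by 5.80 (SE 0.0689, adjusted p 7.86e-15) and Tnni2 by 5.72 (SE 0.0681, adjusted p 4.58e-23) on the log2 scale. Lsp1, a leukocyte-associated actin-binding protein gene, rose by 1.67 (SE 0.0356). Mrpl23, a mitochondrial ribosomal protein gene and the nearest on that side, was not called (log2 fold change 0.096, SE 0.0640, adjusted p 0.189), with 5.53 ± 0.324 RPKM at day 0 and 5.92 ± 0.375 with DMSO. Ins2 rose from 0.0491 ± 0.0112 to 4.01 ± 0.0456 CPM, with only 2 and 4 counts at day 0. It would not have passed the filter without its day 4 libraries, so its test against day 0 is given no weight. Th and Ascl2 were below the filter. None of the tested neighbours was called between 4-PBA and DMSO.

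**Figure D2:**
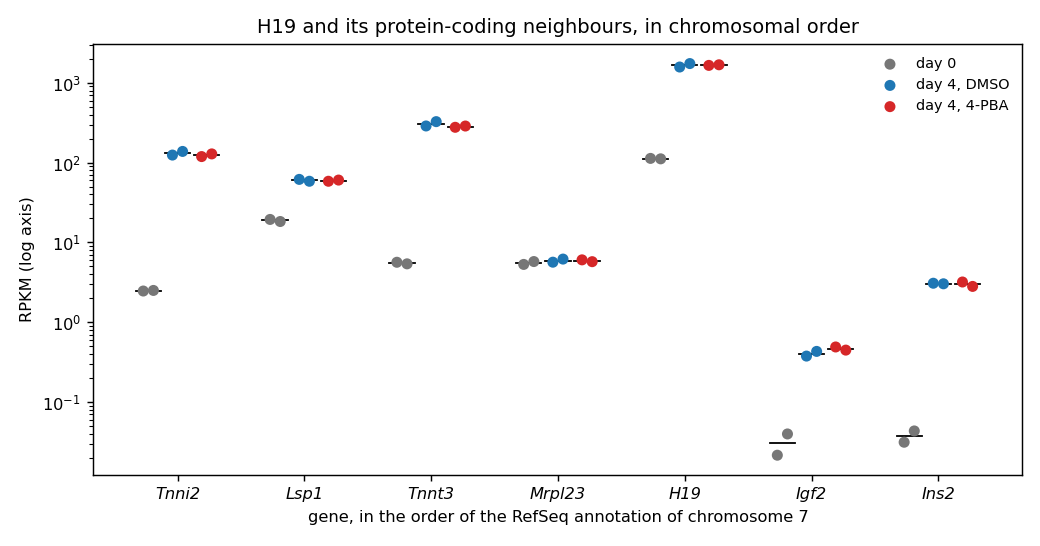
RPKM on a log axis of H19 and 6 protein-coding neighbours in the order of the chromosome 7 annotation; points are libraries and short lines are group means. Day 4 libraries lie above day 0 libraries for all genes shown except Mrpl23, whose day 0 and DMSO means were 5.53 and 5.92 RPKM.

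Meg3, Rian and Mirg are lncRNAs of the maternal chromosome at the Dlk1-Dio3 domain; Rian hosts small nucleolar RNAs and Mirg hosts microRNAs. Meg3 had 2 and 1 counts at day 0; the DMSO libraries held 7 and 5 and the 4-PBA libraries 4 and 1. For Rian the day 0 libraries held 9 and 8 counts, the DMSO libraries 8 and 11 and the 4-PBA libraries 11 and 2. Mirg had 0 counts in both day 0 libraries, 1 and 3 in the DMSO libraries and 0 and 4 in the 4-PBA libraries. The libraries of the groups overlapped for Rian in every comparison.

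Pooled over the 2 libraries of a group, the ratio of DMSO to day 0 was 3.46 for Meg3 (95% counting interval 0.934 to 19.1, from 12 and 3 counts) and 0.967 for Rian (0.476 to 1.98, from 19 and 17 counts). For Mirg the 0 counts at day 0 have an exact Poisson upper limit of 0.0311 CPM, above the 0.0291 CPM seen with DMSO, and no fold is given. The ratio of 4-PBA to DMSO was 0.461 for Meg3 (0.127 to 1.40) and 0.756 for Rian (0.343 to 1.61). These exact intervals, which cover counting error only, all include 1, so no difference was detectable at this depth. Rian, the only one of the 3 tested across all genes, was not called in any comparison (adjusted p 0.936 for DMSO against day 0).

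Of the reads of the 3 lncRNAs together, Rian held 85.0% at day 0 (17 of 20 counts, exact 95% interval 62.1% to 96.8%), 54.3% with DMSO (19 of 35, 36.6% to 71.2%) and 59.1% with 4-PBA (13 of 22, 36.4% to 79.3%). The intervals overlap. The 4-PBA libraries disagreed, with 73.3% (11 of 15 counts) in replicate 1 and 28.6% (2 of 7) in replicate 2, so the pooled share rests on which library is kept. Rian counts may include reads of small RNAs annotated within its exons.

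Dlk1 encodes a transmembrane protein with EGF-like repeats that is paternally expressed and known from fetal muscle and preadipocytes. It had 1 count in each group, in 1 of its 2 libraries, and the exact Poisson interval put its pooled level at no more than 0.0469 CPM at day 0, 0.0406 CPM with DMSO and 0.0449 CPM with 4-PBA. Rtl1, a retrotransposon-derived protein gene of the domain, had at most 5 counts in a library, and Dio3, which encodes a deiodinase, had 0 counts in every library. Of 103 genes annotated in RefSeq between Dlk1 and Dio3, 88 had a row in the table, 10 had a count in at least 1 library and 0 reached 5 CPM. The 61 microRNA rows and the 13 small nucleolar RNA rows among them were at 0. The labels name no selection of small RNA, and some small RNA genes overlap exons of Rian or Mirg. These rows therefore do not show whether the small RNAs were expressed.

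The row with the most counts in this interval was Gm34719, an annotated lncRNA, which is named here because of its counts. The day 0 libraries held 46 and 52 counts, the DMSO libraries 28 and 25 and the 4-PBA libraries 16 and 5, and in CPM the groups did not overlap. The log2 fold change was -1.11 for DMSO against day 0 (SE 0.433, adjusted p 0.0248) and -2.30 for 4-PBA against day 0 (SE 0.491, adjusted p 1.05e-04). The difference between 4-PBA and DMSO was not called (-1.19, SE 0.520, adjusted p 0.220).

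Peg3 (also called Pw1) encodes a zinc finger protein known as a marker of muscle progenitor cells, and it came second to H19 per exon length, although at day 0 its CPM was the higher. The day 0 libraries gave 450 and 442 CPM. The DMSO libraries gave 563 and 565 CPM and the 4-PBA libraries 563 and 568 CPM. Both day 4 groups lay above both day 0 libraries, with replicates within a few CPM of each other. The rise over day 0 was 0.34 on the log2 scale in DMSO cells, or 1.27-fold (SE 0.0283, adjusted p 6.57e-13). It was also 0.34 in 4-PBA cells (SE 0.0283, adjusted p 5.19e-13). Between 4-PBA and DMSO the log2 difference was 0.0039 (SE 0.0282, 95% interval -0.053 to 0.061, adjusted p 0.969).

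In the annotation, the imprinted genes Zim1 and Usp29 flank Peg3. Zim1, a zinc finger gene imprinted on the maternal side, rose from 57.6 ± 0.395 to 144 ± 4.51 CPM in DMSO cells, by 1.33 on the log2 scale (SE 0.0377, adjusted p 2.86e-26). Usp29, a paternally expressed ubiquitin protease gene, was not called with DMSO (-0.21, SE 0.117, adjusted p 0.109) and was lower with 4-PBA than at day 0 (-0.51, SE 0.120, adjusted p 3.29e-04). Between 4-PBA and DMSO, neither Zim1 (-0.089, adjusted p 0.172) nor Usp29 (-0.30, adjusted p 0.168) was called.

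Plagl1 (Zac1) encodes a zinc finger transcription factor known to restrain proliferation and to act on other imprinted genes, H19 and Igf2 among them. It was the only tested member called lower against day 0. The day 0 libraries held 40 and 46 counts, the DMSO libraries 6 and 9 and the 4-PBA libraries 6 and 10. In CPM that is 0.823 and 0.655 at day 0 against 0.0951 to 0.161 on day 4. The day 0 libraries were both several times higher than any day 4 library. Against day 0 the log2 fold change was -2.73 in DMSO cells (SE 0.552, adjusted p 4.78e-05) and -2.49 in 4-PBA cells (SE 0.547, adjusted p 1.46e-04). Plagl1 would not have passed the filter without its day 0 libraries, so these tests against day 0 are given no weight. Between 4-PBA and DMSO the log2 difference was 0.24 (SE 0.667, 95% interval -1.12 to 1.60, adjusted p 0.917).

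The 250 bases before the RefSeq start of Plagl1 and of Peg3 are shown as description. A link between their motifs and the levels of these genes was not tested. Capitals mark E-boxes (CANNTG, the motif bound by MyoD, myogenin and other basic helix-loop-helix factors), which read alike on both strands. The Plagl1 window is on the plus strand at chr10:13090582-13090831 and the Peg3 window on the minus strand at chr7:6730420-6730669, both in GRCm38.p6.
Plagl1: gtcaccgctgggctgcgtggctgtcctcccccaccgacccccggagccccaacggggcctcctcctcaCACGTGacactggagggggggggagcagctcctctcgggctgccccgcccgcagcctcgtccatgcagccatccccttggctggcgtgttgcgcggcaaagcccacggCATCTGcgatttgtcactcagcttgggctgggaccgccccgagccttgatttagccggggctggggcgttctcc
Peg3: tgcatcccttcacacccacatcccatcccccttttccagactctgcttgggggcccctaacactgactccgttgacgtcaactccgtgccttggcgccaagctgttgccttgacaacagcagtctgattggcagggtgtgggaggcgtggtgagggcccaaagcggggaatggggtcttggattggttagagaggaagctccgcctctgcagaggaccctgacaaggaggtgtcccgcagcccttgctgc
The Plagl1 window held 2 E-boxes and the Peg3 window 0, while 66.2% of 32851 promoter windows of this length held at least 1. The E-box form CAGCTG, a subset of CANNTG, was in 4271 of the windows and in neither of these. The MEF2 site, searched on both strands, was in 2.92% of all windows and in 0 windows of the members. Of the 10 genes, 9 had an entry. H19 had none, so these motif counts do not cover it. The window of the first Grb10 start held 40 CpG dinucleotides, the Plagl1 window 19 and the Peg3 window 8, against a median of 6 over all windows.

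Grb10 encodes an adaptor protein that binds the insulin and IGF1 receptors and limits their signalling. It had 0 and 1 counts at day 0. The DMSO libraries held 19 and 14 and the 4-PBA libraries 21 and 7 counts. Both day 4 groups lay above day 0, and the 4-PBA libraries bracketed the DMSO libraries. The pooled ratio to day 0 was 28.6 with DMSO (95% counting interval 4.78 to 1162) and 26.8 with 4-PBA (4.43 to 1095), each against a single count. Grb10 passed the filter only through its day 4 libraries, so its test against day 0 is given no weight, and the call with 4-PBA was lost without 4-PBA replicate 1. The pooled ratio of 4-PBA to DMSO was 0.938 (0.546 to 1.60).

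The nearest annotated protein-coding genes on either side of Grb10 were Ddc and Cobl, which have been reported as imprinted in some mouse tissues. Both were higher on day 4, while genes further out were not. Cobl, an actin nucleator gene, rose from 33.8 ± 0.641 to 104 ± 3.50 CPM in DMSO cells, by 1.61 on the log2 scale (SE 0.0438, adjusted p 7.14e-27). Ddc, which encodes a decarboxylase, rose by 3.80 (SE 0.354, adjusted p 1.12e-11) on the log2 scale. Ddc would not have passed the filter without its day 4 libraries, so this test is given no weight.

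Mest encodes a protein of the alpha/beta hydrolase family. It stood at 2.35 and 2.58 CPM at day 0, at 2.35 and 2.06 CPM in the DMSO libraries and at 2.93 and 2.69 CPM in the 4-PBA libraries. Both 4-PBA libraries were the highest of the 6, but by little. Mest was not called in any comparison. Its log2 difference was -0.17 for DMSO against day 0 (SE 0.184, adjusted p 0.437), 0.19 for 4-PBA against day 0 (SE 0.181, adjusted p 0.380) and 0.35 for 4-PBA against DMSO (SE 0.181, 95% interval -0.014 to 0.72, adjusted p 0.326). Its neighbour Copg2, whose exons overlap Mest on the opposite strand, rose by 0.58 (SE 0.0492, adjusted p 1.32e-12) with DMSO. The labels do not say whether counting used strand, so reads of the overlap may have been credited to either gene.

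Ndn encodes necdin, a member of the MAGE family known to bind E2F factors and to favour myoblast differentiation. The day 0 libraries held 20 and 32 counts, the DMSO libraries 45 and 48 and the 4-PBA libraries 33 and 60. In CPM every day 4 library (0.532 to 0.966) lay above both day 0 libraries (0.412 and 0.456), and the 4-PBA libraries lay on either side of the DMSO libraries. The pooled ratio to day 0 was 1.55 with DMSO (95% counting interval 1.09 to 2.22) and 1.71 with 4-PBA (1.21 to 2.45). These intervals exclude 1 but cover counting error only. Ndn was not called with DMSO (log2 fold change 0.64, SE 0.384, 95% interval -0.14 to 1.42, adjusted p 0.145) or with 4-PBA (0.78, SE 0.384, adjusted p 0.0744) against day 0. Without 4-PBA replicate 1 the 4-PBA value was 1.15 (adjusted p 0.0200), and without 4-PBA replicate 2 it was 0.29. Of the genes beside Ndn in the domain, Magel2 had 0 counts in all libraries. Snrpn, which encodes a spliceosomal protein, rose by 0.55 (SE 0.0965, adjusted p 5.11e-06) with DMSO, and Ube3a by 0.14 (SE 0.0400, adjusted p 0.00349). Mkrn3 (0.68, SE 0.390, adjusted p 0.124) and Peg12 (-0.62, SE 0.304, adjusted p 0.0738) were not called with DMSO and pointed in opposite directions. Snrpn shares exons with Snurf, which is listed at 0.

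Between 4-PBA and DMSO on day 4, edgeR called 0 of the 7 tested members, and 0 had an unadjusted p under 0.05. The background was 4.90% of all tested genes, 2.13% higher and 2.78% lower with 4-PBA. DESeq2 and limma-voom also called 0 members. The smallest adjusted p was 0.326, for Mest, and the median log2 difference was 0.0069 over the tested members and 0.0021 over all genes. The precision differed greatly between members. The 95% intervals given above were narrow for H19 and Peg3, while those of Rian ran from -1.98 to 1.20, of Grb10 from -1.42 to 1.20 and of Ndn from -0.59 to 0.87 on the log2 scale, so sizeable differences of these genes could not be seen at their counts.

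**Figure D3:**
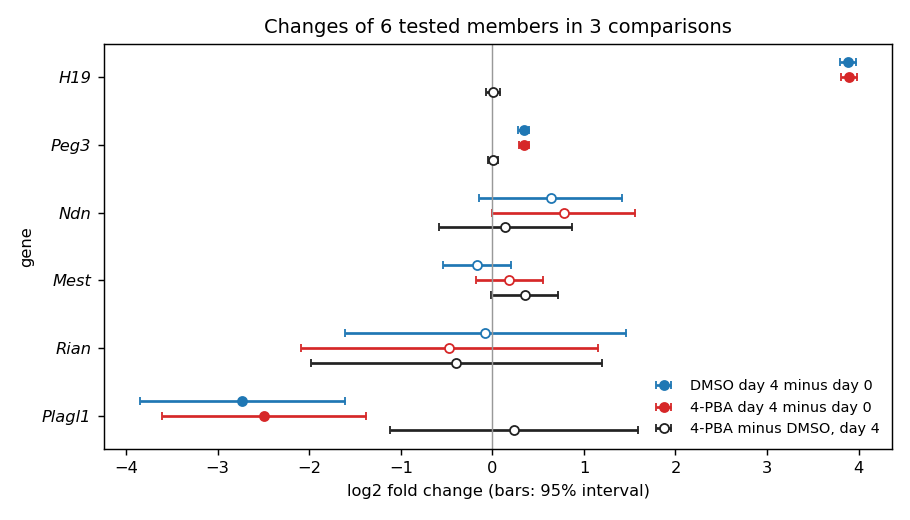
Log2 fold changes of 6 tested members with 95% intervals, in blue for DMSO day 4 minus day 0, in red for 4-PBA day 4 minus day 0 and in black for 4-PBA minus DMSO; filled points have an adjusted p under 0.05. H19, Peg3 and Plagl1 are filled against day 0 and no black point is filled. Plagl1 was tested because of its day 0 libraries, so its filled points are given no weight. Grb10 is not drawn because it had 1 count at day 0.

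Beyond these genes, a list of 56 other genes reported as imprinted in at least 1 mouse tissue was examined; 54 were in the table, 38 were tested and 22 were under 1 CPM in every library. With DMSO against day 0, 22 rose, 6 fell and 10 were not called, against 33.8% higher, 32.6% lower and 66.3% called over all tested genes. The median log2 fold change was 0.54, against 0.023 over all genes. With 4-PBA against day 0, 23 rose, 7 fell and 8 were not called, against 33.2% higher, 32.4% lower and 65.6% called over all tested genes. Igf2, Cdkn1c, Ddc and Slc22a18 would not have passed the filter without their day 4 libraries. The counts of rises and the median therefore follow in part from the filter, and no weight is given to their excess over all genes. Leaving out any 1 library gave 24 to 28 called genes with DMSO and 24 to 31 with 4-PBA.

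Igf2r, which encodes the receptor that clears IGF2, rose from 107 ± 0.408 to 196 ± 4.84 CPM in DMSO cells, by 0.87 on the log2 scale (SE 0.0338, adjusted p 2.93e-22). Airn, the lncRNA of the same domain, rose from 25.1 ± 0.955 to 56.6 ± 4.61 CPM (1.17, SE 0.0565, adjusted p 8.59e-19). Cdkn1c, a cyclin-dependent kinase inhibitor gene, rose by 2.65 (SE 0.397, adjusted p 2.01e-06), a size that ranged from 1.79 to 4.02 over the fits without 1 library. Its day 0 level was 0.248 ± 0.231 CPM. Cdkn1c would not have passed the filter without its day 4 libraries, so this test is given no weight. The largest change among those named was in Dcn, which encodes the matrix proteoglycan decorin, from 8.15 ± 0.143 to 281 ± 17.7 CPM (5.11, SE 0.0601, adjusted p 4.30e-21). Gab1, a docking protein gene, rose by 0.99 (SE 0.0580, adjusted p 4.66e-17). Adam23, a membrane protein gene, fell from 14.3 ± 0.308 to 2.84 ± 0.0664 CPM (-2.34, SE 0.130, adjusted p 1.05e-17).

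Between 4-PBA and DMSO, edgeR called 0 of these 38 genes, and so did DESeq2 and limma-voom. An unadjusted p under 0.05 was found for 5 of them (Tssc4, Cd81, Zim1, Usp29 and Cobl), and the smallest adjusted p was 0.0857, for Cobl. The median log2 difference was 0.018, against 0.0021 over all genes. Without DMSO replicate 1, 4 of the list were called, Cobl (adjusted p 0.0196) and Zim1 (adjusted p 0.0398) among them.

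**Figure D4:**
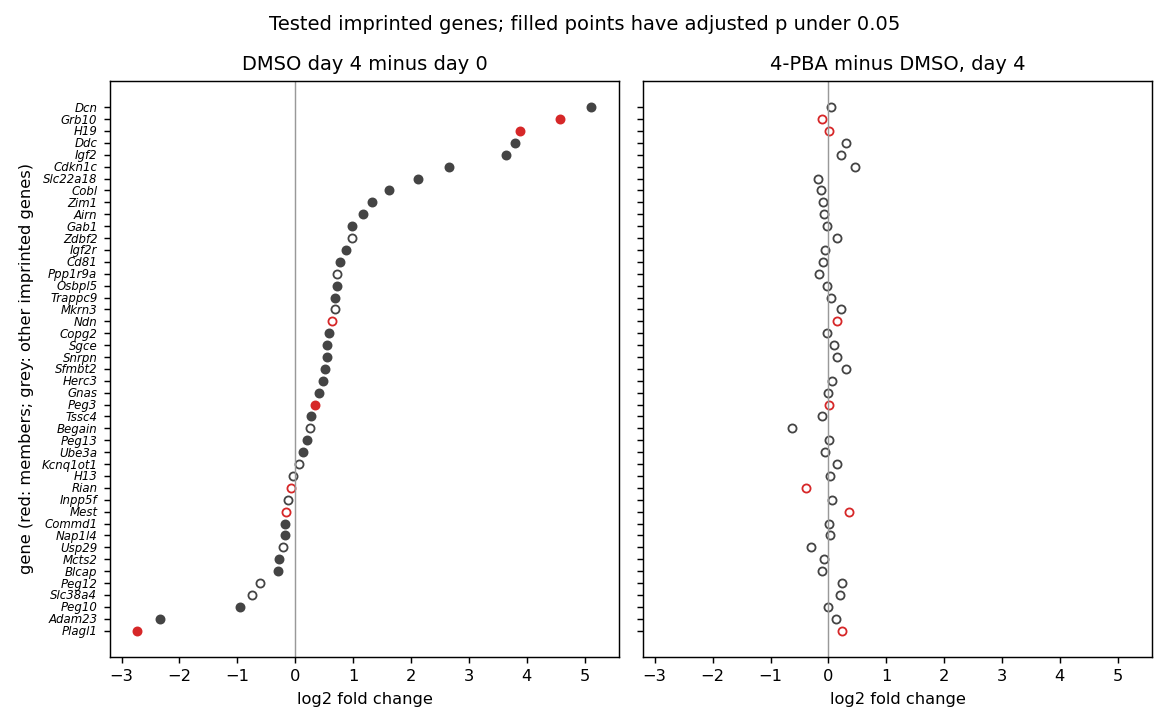
Log2 fold changes of the 45 tested imprinted genes, members in red and the other list in grey, on the left for DMSO day 4 minus day 0 and on the right for 4-PBA minus DMSO; filled points have an adjusted p under 0.05. Values on the left run from -2.73 for Plagl1 to 5.11 for Dcn, while on the right no point is filled and the points lie between -0.63 and 0.45. Plagl1 was tested because of its day 0 libraries, and Grb10, Igf2, Cdkn1c, Ddc and Slc22a18 because of their day 4 libraries. Their points on the left are given no weight.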

How the data were processed

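The authors deposited raw counts per gene symbol, with 1 column per library, neither normalised nor pooled. Per the labels' protocols, libraries came from DNase-treated total RNA and a directional Illumina kit; all carry the same batch number. The submitters' processing notes name the genome build GRCm39; the aligner, counter, annotation and strand setting are not given in the sources used here.

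The deposited counts went into edgeR 4.0.16 (R 4.3.3): filterByExpr by group, TMM scaling, 1 mean per group over all 6 libraries, robust glmQLFit and its quasi-likelihood test. Each gene had 3 residual degrees of freedom, and a median of 30.4 prior degrees of freedom came from the spread of other genes. P-values were adjusted by Benjamini-Hochberg across the 17433 genes tested, with calls at an adjusted p under 0.05. Standard errors were taken as the log2 fold change divided by the square root of F. RPKM used the union of exons in GENCODE M21, on GRCm38, whose symbols matched 36556 of the 43074 in the table and all 10 members. Counting intervals were exact Poisson or Clopper-Pearson 95% intervals. Sequences are from RefSeq (GRCm38.p6), so no coordinate is on the authors' build.

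Members, lists and tests were chosen with earlier results of these data known. Named genes were the 10 members; of the other imprinted genes Igf2, Igf2r, Cdkn1c and the 6 largest called changes with DMSO with at least 5 CPM; and the 3 nearest patterns. The neighbours of members were added after their counts were seen. The alternatives were DESeq2 1.42.0 size factors and Wald test, limma-voom (limma 3.58.1), library size only, other filters, a replicate block, fits to the 4 libraries of a comparison alone, a threshold of 0.01 for the adjusted p, leaving out each library and, for RPKM, the longest transcript. The methods were tested on simulated counts. Figures used matplotlib 3.10.9.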

Additional observations from a re-analysis of the deposited data

How the results depend on the processing

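With the stricter filter, 2 members were called in each comparison with day 0 in place of 4, because fewer members were tested. All genes called between 4-PBA and DMSO, 855 in the report, numbered 424 at an adjusted p under 0.01 and 295 to 1194 when any 1 library was left out (341 without 4-PBA replicate 1 and 295 without 4-PBA replicate 2). Leaving out 1 library gave 0 to 1 members and 0 to 4 other imprinted genes called there. Its share of higher genes among calls was 43.4%, and 51.5% with library size only.

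When any 1 library was left out, the log2 difference between 4-PBA and DMSO ranged from -0.064 to 0.082 for H19, -0.0020 to 0.011 for Peg3, -2.03 to 0.36 for Rian, -0.17 to 0.56 for Plagl1, -1.10 to 0.47 for Grb10, -0.35 to 0.51 for Ndn, -0.023 to 0.11 for Dcn, -0.15 to 0.016 for Airn, -0.055 to 0.022 for Gab1 and -0.12 to 0.36 for Adam23, so each changed sign; the cause was not tested. Rian ranged from -0.42 to 0.27 with DMSO and -2.11 to 0.28 with 4-PBA against day 0, and, with 4-PBA, Grb10 from 3.48 to 6.82 and Ndn from 0.29 to 1.15. With DMSO against day 0, the log2 fold change ranged from 3.81 to 3.96 for H19, 0.33 to 0.35 for Peg3 and -2.92 to -2.57 for Plagl1.

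With the longest transcript as length, the DMSO level was 1785 for H19, 64.9 for Peg3, 0.827 for Mest, 0.0484 for Grb10, 0.0206 for Plagl1, 0.0170 for Rian and 0.00736 RPKM for Mirg. Same-numbered replicates did not deviate together (correlations -0.028, -0.0031 and -0.012 over 17433 genes). These correlations cannot tell whether same-numbered samples shared a culture or a preparation. The replicate block called 4, 0 and 4 members and 11403, 768 and 11309 genes for DMSO against day 0, 4-PBA against DMSO and 4-PBA against day 0. Depth limits Meg3, Rian, Mirg, Dlk1 and Grb10, each at or under 0.338 CPM in every library.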
